A study of Mus musculus with 34 samples.

Results

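The 42 genes described here are ligands, receptors, Smads, antagonists and Id targets of the TGF-beta and BMP pathway. They were chosen by symbol: a gene belongs where the gene name printed in the scanner files equals its symbol. All 42 were found, on 56 probes, and all 42 passed the filter on dim probes, among 19414 genes tested in the series. Transforming growth factor beta and activin bind pairs of type I and type II receptor kinases that phosphorylate Smad2 and Smad3, whereas bone morphogenetic proteins act through other type I receptors on Smad1, Smad5 and Smad9. Both branches share Smad4, are damped by the inhibitory Smad6 and Smad7, and are limited outside the cell by antagonists such as gremlin, noggin and follistatin. In heart cells the TGF-beta branch is known for driving fibroblasts toward matrix production, and the BMP branch for its part in heart development. The Id genes encode inhibitors of basic helix-loop-helix factors and are classic transcriptional targets of BMP signalling.

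RNA was measured on 34 single-colour Agilent arrays, 2 for each of 17 groups, all of CD1 mouse cells with the aMHC-GFP genotype, a green fluorescent reporter read from the cardiac alpha-myosin heavy chain promoter. Fibroblasts (neoCF) and cardiomyocytes (neoCM) were taken fresh from pups at postnatal day 1.5. A time course started from cardiac fibroblasts on day 0 (CF D0) and followed cells given either Mef2c, Gata4 and Tbx5 from 1 polycistronic retrovirus (MGT) or LacZ, on days 3, 5, 7, 10 and 14. Induced cardiomyocytes (iCM) were collected 4 weeks after the same 3 factors. Cardiomyocytes were also differentiated from pluripotent lines made from cardiac fibroblasts with Oct4, Sox2, Klf4 and cMyc: the first line on day 13 (iPSC1-CM D13) and the second on day 9 and, in long-term culture, day 29 (iPSC2-CM D9 and iPSC2-CM D29). Each of these lines is a single line, and the medium of the iCM and the iPSC-derived cells held VEGF, bFGF and FGF10. The labels do not say whether the 2 arrays of a group came from separate cultures or animals, so p-values measure the spread between these samples, which may be technical.

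Between 28715 and 44881 of 59305 spots were well above background on an array. Within a group, the correlation of both arrays over the genes tested was 0.984 to 0.997 in 16 groups, with 0 to 4 members over 2-fold apart. It was 0.895 for iPSC2-CM D29, with 17 members that far apart. LacZ D14 replicate 2 was the dimmest array. The arrays labelled as fresh fibroblasts also carried other cells' transcripts: in neoCF all 11 endothelial and all 12 macrophage markers were well above background, with median levels of 3.86 and 4.02 for the endothelial list, against 0.54 and 0.40 in neoCM. In the iCM, all 12 macrophage markers were above background, with median levels of 2.86 and 2.87. In such bulk samples, fewer cells of a type and less RNA per cell cannot be told apart. A level below is log2 intensity relative to the 75th percentile of its own array. A change is a difference of group means on that scale with its standard error (SE), and levels of different genes are not comparable. The SE rests on 1 spread per gene shared over all 17 groups, iPSC2-CM D29 included. It can thus carry the spread of a group outside the comparison. A gene was called at an adjusted p under 0.05 (limma, Benjamini-Hochberg over all genes) and at least 2-fold.

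The members varied widely across groups. The median member spanned 3.07 on the log2 scale between its highest and lowest group, against 2.53 for all genes tested. Bmp7 had the widest span, 11.28, from 5.06 in iPSC2-CM D9 to -6.23 in LacZ D14. Inhba (9.61), Grem1 (9.39), Ltbp2 (8.68) and Tgfbr2 (7.39) followed. At the other end, 9 members were called in none of the 14 comparisons on the brightest probe, which stood for the gene: Tgfb1, Acvr2a, Smad2, Smad3, Smad4, Smad5, Acvr1, Bmpr2 and Chrd. These include the ligand Tgfb1, both receptor-activated Smads of the TGF-beta branch and the common partner Smad4. The share of all genes called in no comparison is not given here, so this count has no background. The other probes of Acvr2a and of Smad5 were each called in 4 comparisons, as given at the end.

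**Figure D1:**
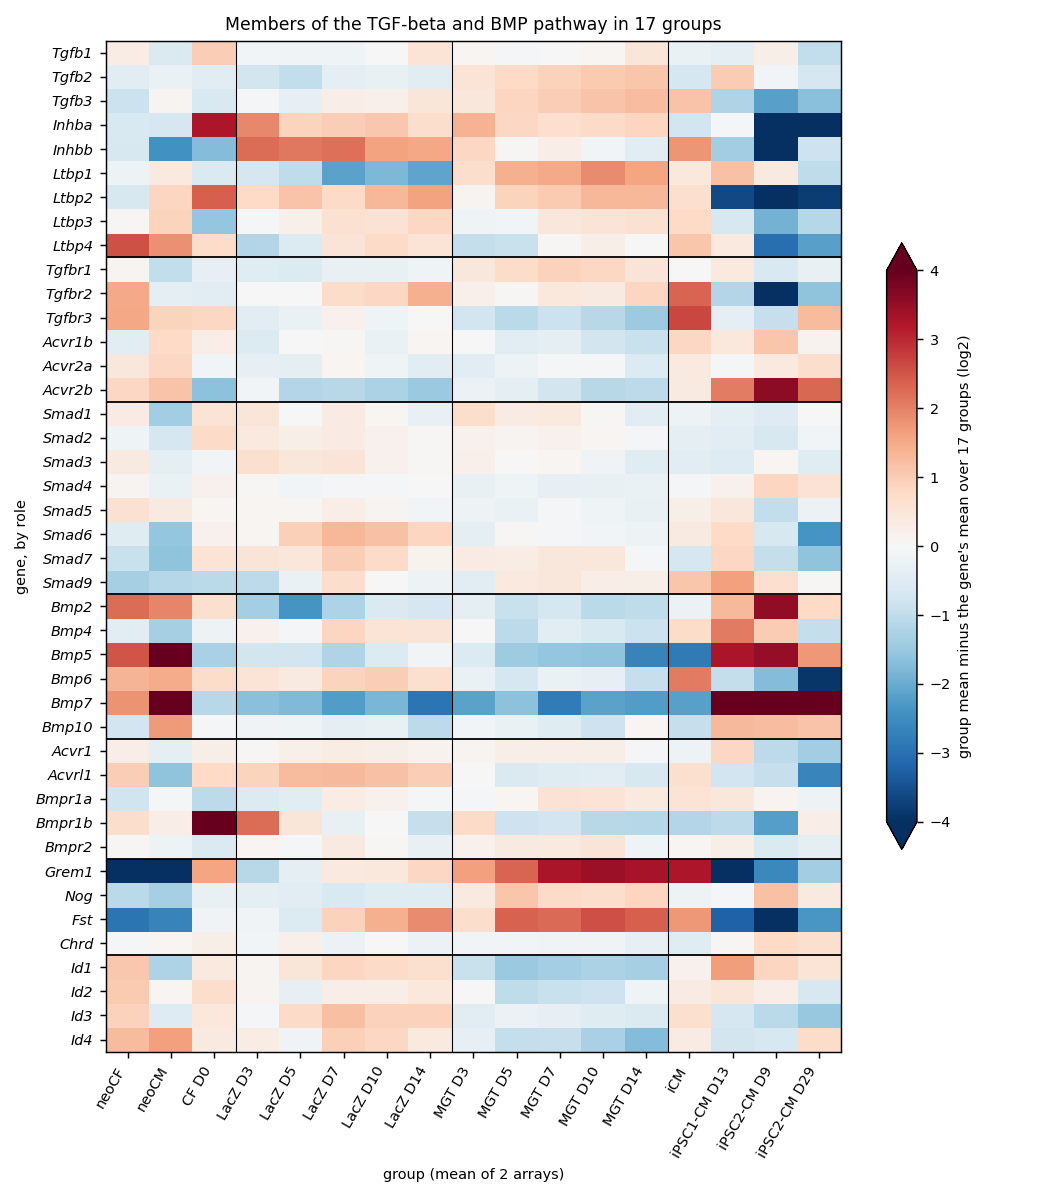
Group means of the 42 members, each minus the gene's own mean over the 17 groups (log2, colour; values past 4 in either direction share the end colours), ordered by role and separated by lines; each column is the mean of 2 arrays. Smad2, Smad3, Smad4 and Smad5 stay pale across groups, while Bmp7, Inhba, Grem1 and Ltbp2 run from dark red to dark blue.

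The promoters of Smad6 and 3 of the Id genes are shown because each was called lower under MGT on at least 1 day, as described next, and they are known BMP targets. Each window is the 250 bases before the annotated start, from RefSeq (GRCm38.p6), written 5′ to 3′ on the gene's strand. Capitals mark 3 short motifs on either strand, taken up with results of these data known: GGAGCC and GGCGCC, forms of the GC-rich element bound by Smad1 and Smad5, and CAGAC, the core of the CAGA box bound by Smad3 and Smad4. No 2 matches overlap in these windows.
Id2, chr12:25096093-25096342, minus strand: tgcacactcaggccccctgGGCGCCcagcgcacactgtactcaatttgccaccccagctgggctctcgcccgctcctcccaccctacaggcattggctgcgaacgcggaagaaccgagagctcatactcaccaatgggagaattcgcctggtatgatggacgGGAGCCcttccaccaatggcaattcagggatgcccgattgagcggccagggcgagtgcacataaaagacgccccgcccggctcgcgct
Id3, chr4:136143572-136143821, plus strand: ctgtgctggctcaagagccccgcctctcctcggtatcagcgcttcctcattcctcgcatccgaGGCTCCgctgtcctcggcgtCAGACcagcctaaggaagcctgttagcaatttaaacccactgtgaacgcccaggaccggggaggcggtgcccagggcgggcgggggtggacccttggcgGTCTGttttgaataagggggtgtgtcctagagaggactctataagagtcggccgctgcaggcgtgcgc
Id4, chr13:48260866-48261115, plus strand: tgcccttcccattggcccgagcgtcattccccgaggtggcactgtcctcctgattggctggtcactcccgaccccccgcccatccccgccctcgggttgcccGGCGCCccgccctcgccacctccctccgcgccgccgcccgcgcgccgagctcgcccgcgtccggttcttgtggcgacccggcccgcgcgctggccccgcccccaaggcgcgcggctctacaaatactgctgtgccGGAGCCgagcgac
Smad6, chr9:64022060-64022309, minus strand: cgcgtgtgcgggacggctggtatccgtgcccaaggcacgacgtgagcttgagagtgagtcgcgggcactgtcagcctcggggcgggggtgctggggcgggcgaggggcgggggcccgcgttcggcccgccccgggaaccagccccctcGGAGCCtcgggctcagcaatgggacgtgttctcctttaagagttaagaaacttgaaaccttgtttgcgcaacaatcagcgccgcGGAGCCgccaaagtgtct
Id2 held 1 GGAGCC, beginning 88 bases before the start, and 1 GGCGCC at 231. Id3 held 1 GGAGCC at 187 and 2 CAGAC at 167 and 68. Id4 held 1 GGAGCC at 13 and 1 GGCGCC at 148, and Smad6 held 2 GGAGCC at 102 and 18. These are common letters: GGAGCC stood in 26% of 32851 promoters of this length, GGCGCC in 9.6% and CAGAC in 42.2%. Of the 31 members with an entry, 17 held GGAGCC, 10 GGCGCC and 14 CAGAC. The 4 windows were rich in G and C, at 62.8%, 62.8%, 75.6% and 66.8%, against a median of 52.4% over all promoters. A match describes the letters of the window and not a bound site.

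Fibroblasts given MGT were compared with those given LacZ on the same day, to follow the first 14 days of direct reprogramming. Averaged over days 3, 5, 7 and 10, 14 of 42 members were called, 6 higher and 8 lower, or 6 and 5 with the authors' log2 values, against 9.9% of all genes tested in that comparison (5.48% higher and 4.42% lower). The median size of a member's change was 0.41, against 0.24 over all genes. Secreted antagonists of BMP and activin rose (3 of 4), and so did Tgfb2, its binder Ltbp1 and the receptor Tgfbr1. Id genes fell (3 of 4), with Acvrl1, Inhbb, Bmp6, Bmpr1b and Smad6. By day, the called members numbered 5 on day 3 (background 5.04%), 12 on day 5 (8.24%), 13 on day 7 (8.74%), 13 on day 10 (8.63%) and 15 on day 14 (13.2%). Over the 5 days, 20 members were called at least once, and none was called in both directions. The matching shares of all genes over the 5 days are not given here, so neither count has a background. Of all genes, the share called higher was 3.18%, 4.91%, 5.31%, 5.24% and 5.84% on days 3, 5, 7, 10 and 14, and the share called lower 1.86%, 3.33%, 3.43%, 3.38% and 7.35%. On day 3 the calls of Grem1 and Ltbp1 were lost without any 1 of the 4 arrays, which left 2 or 3 members. The day-3 to day-10 arrays of both viruses shared slides. The day-14 groups lay on different slides of 1 scan day, so slide and virus cannot be told apart there.

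**Figure D2:**
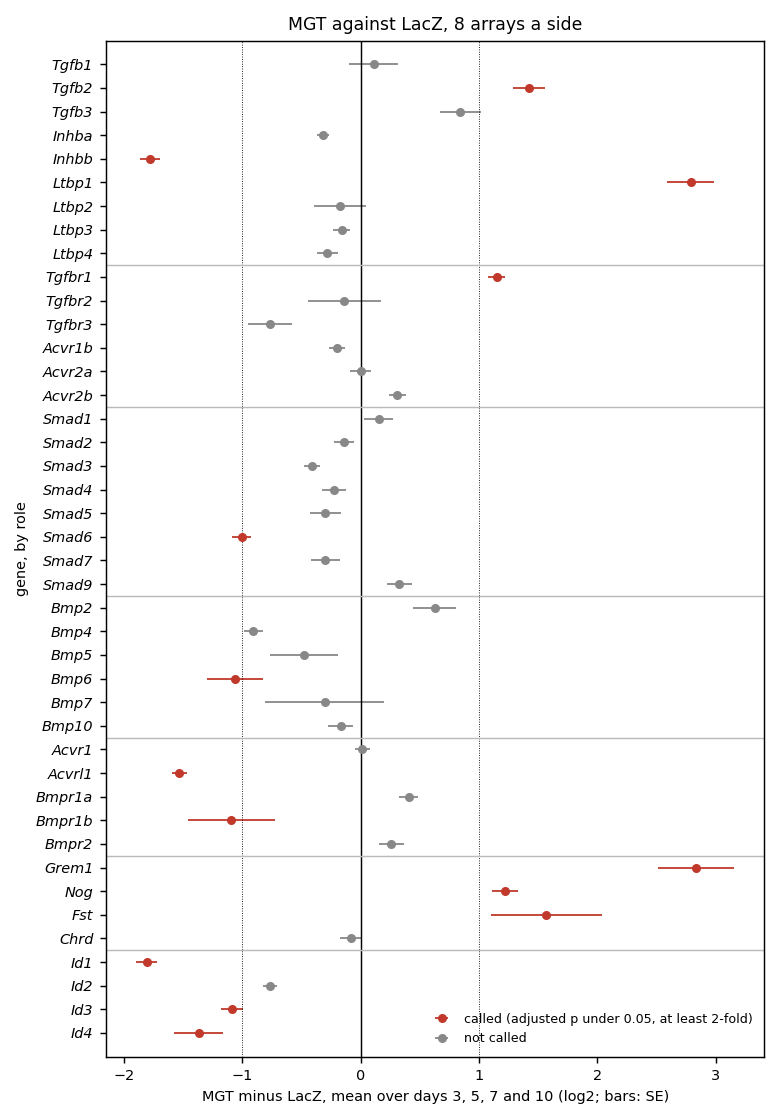
Change between MGT and LacZ averaged over days 3, 5, 7 and 10 for all 42 members by role (log2, points; bars are standard errors; red where called; dotted lines at 2-fold), from 8 arrays a side. Grem1 and Ltbp1 lie farthest to the right, at 2.84 and 2.79, and Id1 and Inhbb farthest to the left, at -1.81 and -1.78.

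Among the antagonists, Grem1, which encodes the BMP antagonist gremlin 1, had the largest rise of the members. Over days 3 to 10 its level in LacZ cells was -2.93 at the lowest, -1.77 at the median and -1.25 at the highest, and in MGT cells -0.13, 1.05 and 1.67. Every MGT array was above every LacZ array of those days. The change was 2.84 ± 0.32 (SE, adjusted p = 6.8e-07, limma), or 7.14-fold, and by day it lay between 2.44 and 3.00. On day 3 the MGT arrays, at -0.13 and -0.10, were near the day-0 fibroblasts, at -0.24 and -0.15, whereas the LacZ arrays were at -2.84 and -2.93. The day-0 arrays were on another slide and scan day. On day 14 the LacZ arrays stood apart, at -0.34 and -1.52, the first above all other LacZ arrays. Without LacZ D14 replicate 2 the day-14 change was 1.86 and was not called (adjusted p = 0.13, limma).

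Nog, encoding noggin, rose by 1.22 ± 0.11 (adjusted p = 3.6e-08, limma). Its 8 LacZ arrays ran from -2.84 to -2.36 with a median of -2.60, and its 8 MGT arrays from -1.83 to -0.95 with a median of -1.35, so the groups did not overlap. The mean change was 0.99 after normexp and quantile normalization, just short of a call. Nog was called on 4 of 5 days, on day 10 not without LacZ D10 replicate 2 (0.94). Fst, encoding the activin-binding follistatin, was higher on average by 1.57 ± 0.47 (adjusted p = 0.013, limma), but the groups overlapped once days were pooled. In LacZ cells Fst came up later: its arrays read 1.45 and 1.40 on day 5, 2.88 and 2.91 on day 7, and 4.08 and 3.67 on day 14. The MGT arrays read 4.24 and 4.42 on day 5 and 4.30 and 4.42 on day 14. Of single days Fst was called on day 5 only (2.90 ± 0.94, adjusted p = 0.044, limma), and not there without any 1 of the 4 arrays of that day. The shared spread of Fst was widest in iPSC2-CM D29 (standard deviation 3.91), against 0.13 in MGT D5 and 0.04 in LacZ D5. On days 7 and 10 the MGT arrays also lay above the LacZ arrays, uncalled. The group means were 4.25 against 2.90 on day 7 and 4.56 against 3.42 on day 10. Chrd, encoding chordin, was not called (-0.08 ± 0.09).

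Among the ligands and latent binders, 2 of 9 rose and 1 fell. Ltbp1, which tethers latent TGF-beta to the matrix, rose by 2.79 ± 0.20 (adjusted p = 8.8e-10, limma). Its LacZ arrays had a lowest level of 0.24, a median of 1.11 and a highest of 1.79, and its MGT arrays 3.12, 3.90 and 4.39. The gap widened with time, since MGT arrays rose from 3.12 and 3.16 on day 3 to 4.29 and 4.39 on day 10 while LacZ arrays went from 1.75 and 1.79 to 0.81 and 0.49. The change on day 10 less that on day 3 was 2.33 ± 0.56 (adjusted p = 0.030, limma). That difference lost its call (adjusted p = 0.089 to 0.11, limma) when any 1 of the 8 arrays was left out other than LacZ D10 replicate 1. Tgfb2 rose by 1.42 ± 0.14 (adjusted p = 5.9e-08, limma), with 2.83, 3.27 and 3.58 as the lowest, median and highest LacZ levels and 4.38, 4.69 and 4.95 as the MGT levels. Its day-by-day change stayed between 1.26 and 1.78. Tgfb3 was also higher on each day, by 0.53 to 1.18, but was called on day 5 only, and not without any 1 of the 4 arrays. Tgfb1 differed by 0.11 ± 0.21.

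Inhbb, which encodes the beta B subunit of activin and inhibin, fell by 1.78 ± 0.08 on the log2 scale (adjusted p = 1.4e-12, limma). Its LacZ arrays ran from 2.71 to 3.42 with a median of 3.34, and its MGT arrays from 1.02 to 2.06 with a median of 1.26. It was called on all 5 days without overlap. Both viruses' cells lay above the day-0 fibroblasts, at -0.57 and -0.56, on another slide. Inhba, the beta A subunit, changed less, by -0.32 ± 0.05.

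Of 6 TGF-beta and activin receptors, Tgfbr1 alone was called over days 3 to 10. This type I receptor of TGF-beta rose by 1.15 ± 0.07 (adjusted p = 1.7e-10, limma), from LacZ levels of 1.70 to 2.10 (median 1.84) to MGT levels of 2.72 to 3.24 (median 3.09). Its partner Tgfbr2 differed by -0.14 ± 0.31, and the accessory receptor Tgfbr3 by -0.77 ± 0.18. On day 14 Tgfbr3 fell by 1.47 ± 0.37 (adjusted p = 0.0061, limma), from 0.91 and 0.46 to -0.74 and -0.82, a call lost without LacZ D14 replicate 1 (adjusted p = 0.053).

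Of the BMP receptors, Acvrl1 fell by 1.53 ± 0.06 (adjusted p = 1.9e-13, limma). It encodes ALK1, a type I receptor best known in endothelium. Its LacZ arrays had a lowest level of 2.69, a median of 3.02 and a highest of 3.21, against 1.23, 1.35 and 1.87 for MGT, and it was called on 4 of 5 days. Over days 3 to 10, 2 of 8 MGT arrays were not well above background for Bmpr1b, nor was LacZ D10 replicate 1. It was lower by 1.09 as a mean over days, but its arrays overlapped, and it was called on no single day. Its mean was -0.82 with the authors' values and -0.60 after normexp and quantile normalization, short of 2-fold, and the call was also lost without MGT D5 replicate 1, MGT D10 replicate 1 or LacZ D7 replicate 1. Acvr1 and Bmpr2 were not called.

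Among the BMP ligands, Bmp4 fell on days 5, 7, 10 and 14, by 1.00, 1.31, 1.16 and 1.37 on the log2 scale. On day 7 it read 4.72 and 4.93 in LacZ cells and 3.49 and 3.54 in MGT cells, and the change was -1.31 ± 0.17 (adjusted p = 8.7e-06, limma). The day-5 call, at 2-fold, was lost under the other scalings (-0.85 to -0.93). On day 3 the arrays read 4.10 and 4.13 against 3.86 and 4.06, and it was not called. Bmp6 was lower by 1.06 ± 0.24 over days 3 to 10 (adjusted p = 0.0014, limma), with LacZ levels from 0.44 to 1.20 and MGT levels from -0.56 to -0.03. After normexp and quantile normalization it was -0.99, just short of a call. Bmp2 was called higher on day 5 only. Bmp5 was not well above background on any course array, so its day-14 call, from 2 sides below background, has no fold, and Bmp7 and Bmp10 were near background as well.

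The Id genes differed in how far they fell and when. Id1 fell by 1.81 ± 0.09 (adjusted p = 3.9e-12, limma), from a lowest of 2.84, a median of 3.28 and a highest of 3.73 in LacZ cells to 1.11, 1.45 and 1.90 in MGT cells. It was called on all 5 days, with the smallest change on day 3, a fall of 1.00. That day-3 call, at 2-fold, was lost in 3 of 13 alternatives besides those that leave out 1 array. Id3 fell by 1.08 ± 0.09 (adjusted p = 1.3e-08, limma), with LacZ arrays from 3.88 to 5.17 (median 4.74) and MGT arrays from 3.34 to 3.76 (median 3.57), and was just short of 2-fold with the authors' values (-0.99). On day 3 it differed by -0.39 and was not called. Id4 fell by 1.37 ± 0.21 (adjusted p = 2.5e-05, limma), with LacZ arrays from -0.90 to 0.30 (median -0.21) and MGT arrays from -2.07 to -0.89 (median -1.68), so that their ends overlapped. Id2 was lower by 0.76 ± 0.06, short of 2-fold over the 4 days, and was called on days 7 and 10 but differed by only -0.13 on day 3. Its day-10 call was lost without LacZ D10 replicate 2 (-0.92), with the authors' values (-0.95) and after normexp and quantile normalization (-0.97). Between day 3 and day 10 the change grew by 1.02 ± 0.26 for Id1 (adjusted p = 0.040, limma) and by 1.03 ± 0.26 for Id3 (adjusted p = 0.043, limma). With Ltbp1, these were the 3 members called for a change in the virus effect between those days, against 1.97% of all genes (1.38% higher and 0.592% lower). Id3 lost that call under each of the 3 other scalings (adjusted p = 0.15 to 0.20, limma), with no filter on dim probes, with slide as a fixed block, and without any 1 of the 8 arrays. Id1 lost it after normexp and quantile normalization (-0.96), with the authors' values (-0.94), with no filter on dim probes, and without any 1 of those arrays other than LacZ D10 replicate 2.

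Smad6, an inhibitory Smad that BMP signalling is known to induce, was the called one of 8 Smads. It was lower by 1.01 ± 0.08 (adjusted p = 4.2e-09, limma), just past 2-fold, with LacZ arrays from 2.80 to 4.15 (median 3.75) and MGT arrays from 2.38 to 2.90 (median 2.64), which overlapped once days were pooled. Under the other scalings the change was -0.93 or -0.91, short of 2-fold with the same direction, and it was also short of 2-fold without any 1 of 7 of the 16 arrays. On day 7 it read 4.15 and 4.05 in LacZ and 2.80 and 2.60 in MGT cells, a change of -1.40 ± 0.16 (adjusted p = 2.5e-06, limma). Smad7, the other inhibitory Smad, differed by -0.30 ± 0.12, and Smad3 by -0.41 ± 0.07.

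**Figure D3:**
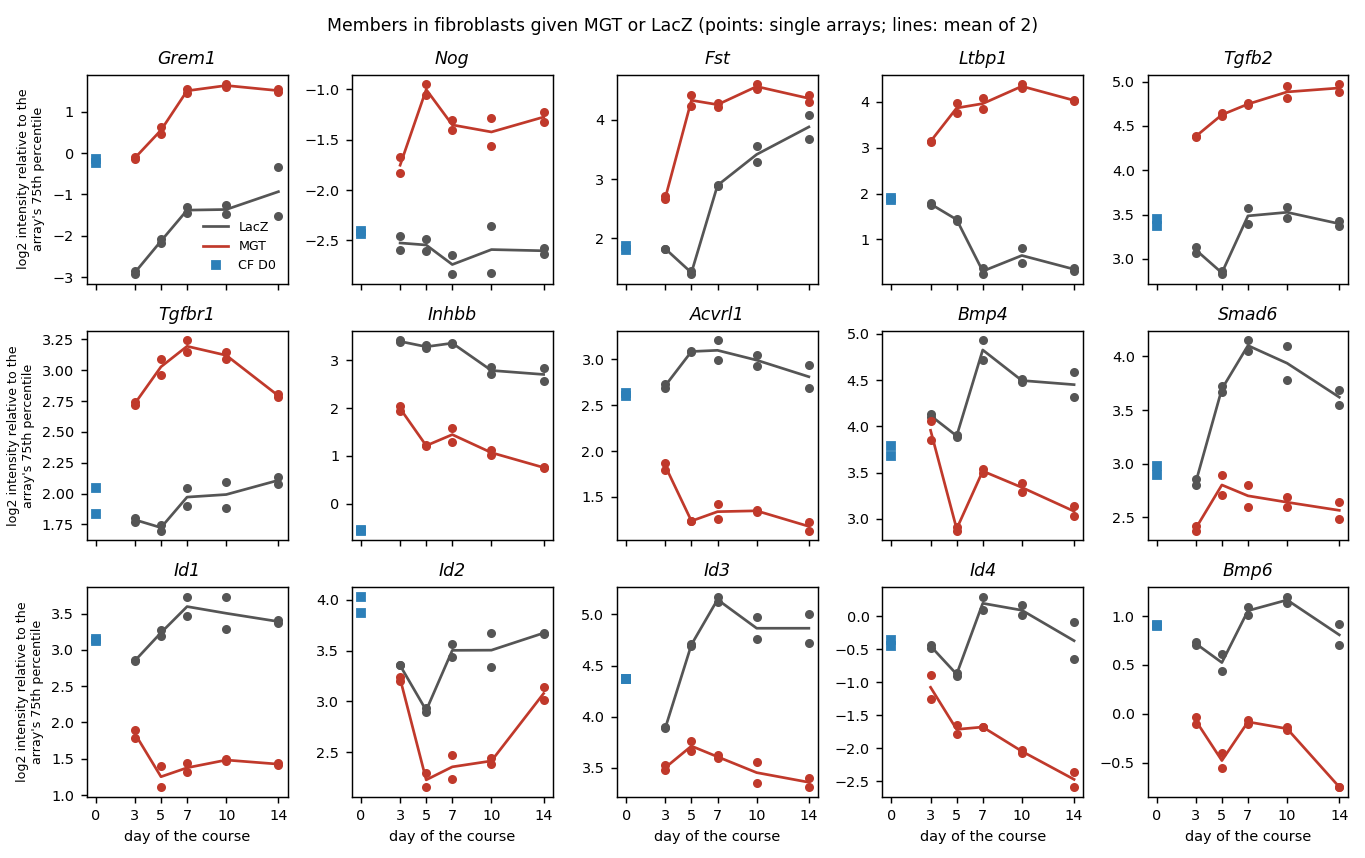
Levels of 15 members (log2 intensity relative to the array's 75th percentile) against day of the course, in cells given LacZ (grey) or MGT (red), with day-0 fibroblasts as blue squares; points are single arrays and lines join means of 2. The Id1 and Inhbb curves stay apart on all 5 days, the Fst curves converge by day 14, and the Ltbp1 curves diverge.

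Markers of other cells moved in the same comparison. Over days 3 to 10, 7 of 11 endothelial markers were lower under MGT and none higher. The list's median level per array ran from -3.66 to -1.33 in MGT and from -2.03 to -0.07 in LacZ cells, and 8 to 11 of its 11 markers were well above background on each MGT array, 10 or 11 on each LacZ array. On day 3, Acvrl1 was lower by 0.88, short of a call, and 1 of 11 endothelial markers was called. Cardiomyocyte markers were higher, 10 of 10, with medians of 1.30 to 2.45 against -4.14 to -2.82. Of fibroblast markers 1 rose and 3 fell of 10, and 0 of 12 macrophage and 0 of 6 proliferation markers were called by limma at this threshold. The smooth muscle and pericyte list's median ran from 3.42 to 3.90 in MGT and from 1.78 to 2.95 in LacZ cells. For the epicardial list it ran from 1.24 to 1.89 and from -0.15 to 1.41, which overlapped. Acvrl1, Id1, Id3 and Smad6 are also known in endothelial cells, and the part of these cells in their changes was not tested.

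Further genes of the pathway gave 8 higher and 5 lower of 64 tested over days 3 to 10. Gdf10 (4.15 ± 0.61), a BMP family ligand, Bmp8b (4.14 ± 0.21) and the chordin-like antagonist Chrdl1 (3.38 ± 0.40) rose most, each with 1 of 8 LacZ arrays well above background, so the sizes depend on dim signals. Lrrc32 (-2.28 ± 0.28), which holds latent TGF-beta at the cell surface, Itgb8 (-1.35 ± 0.37), an integrin subunit that activates it, and Gdf15 (-1.20 ± 0.40) fell most. Of 30 genes known to respond to TGF-beta, 1 rose and 6 fell, with a median change of -0.32 against -0.09 over all genes. Tpm1, a tropomyosin that muscle also expresses, rose by 2.76 ± 0.17, and Col3a1 (-1.76 ± 0.43), Snai1 (-1.59 ± 0.11) and Timp3 (-1.36 ± 0.13) fell most. These adjusted p-values ran from 6.2e-12 to 0.025 (limma).

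Fresh cardiomyocytes were compared with fresh fibroblasts as the native reference. In neoCM, 13 of 42 members were called, 5 higher and 8 lower. Of all genes 31.6% were called (15.5% higher and 16.1% lower), a share close to that of the members. Acvrl1 fell by 2.61 ± 0.13 (adjusted p = 8.6e-12, limma), from 2.79 and 2.82 to 0.03 and 0.36, and Id1 by 2.31 ± 0.18 (adjusted p = 4.4e-09, limma), from 3.60 and 4.03 to 1.60 and 1.41. Inhbb (-1.78 ± 0.17), Smad1 (-1.71 ± 0.24), Id3 (-1.43 ± 0.19), Tgfbr1 (-1.09 ± 0.15) and Smad6 (-1.08 ± 0.16) were also lower, and against the day-0 fibroblasts Inhbb (-0.69), Id3 (-0.94) and Tgfbr1 (-0.63) were short of 2-fold. In the same arrays 10 of 11 endothelial and 11 of 12 macrophage markers were lower, and their part in these changes was not tested. Of the fibroblast markers only Pdgfra (-2.16 ± 0.63) and Thy1 (-2.88 ± 1.05) were called. Dcn read 7.87 in neoCM and 7.86 in neoCF, and Col1a2 8.05 and 8.01. The cardiomyocyte marker Myh6 read 8.65 in neoCM and 5.52 in neoCF, so each group held transcripts of the other cell type. Smad1's other probe gave -0.85 and was not called. Scan day and cell type cannot be told apart in this comparison.

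Bmp10, a ligand known from the embryonic heart, was higher in neoCM by 2.49 ± 0.22 (adjusted p = 1.9e-08, limma), at -2.42 and -2.49 against -5.05 and -4.83. Acvr1b, the type I receptor of activin, was higher by 1.22 ± 0.14, but its other probe gave 0.22. Bmp7 was higher by 2.76 ± 1.00 (adjusted p = 0.027, limma), where the neoCF arrays lay far apart at -0.66 and -2.40. Behind the SE of this call, the widest spread was that of iPSC2-CM D29, outside the comparison (standard deviation 3.94, against 1.23 in neoCF). That call was lost without neoCF replicate 2 (1.90, adjusted p = 0.23) or either neoCM array. Tgfbr2 was lower by 1.92 ± 0.62, a call lost without any 1 of the 4 arrays. Its spread was widest in iPSC2-CM D29 (standard deviation 2.58), against 0.02 in neoCM and 0.07 in neoCF. Against the day-0 fibroblasts in place of the fresh ones, Ltbp2 turned from 1.51 higher to 1.54 lower in neoCM, and Tgfbr2 did not differ (0.06, adjusted p = 0.94).

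Fibroblasts at the start of the time course differed from fresh ones, on the same slide, in 14 of 42 members, 6 higher and 8 lower. Of all genes 34.4% were called, 16.2% higher and 18.2% lower. Grem1 rose by 6.47 ± 0.64 (adjusted p = 6.8e-08, limma), from -6.60 and -6.73 to -0.24 and -0.15. Inhba rose by 3.84 ± 0.11 (adjusted p = 2.7e-15, limma), from 2.27 and 2.17 to 6.11 and 6.01, its highest level in any group. Bmpr1b rose by 4.12 ± 0.73, to 0.63 and 0.69, also its highest. Ltbp2 (3.05 ± 0.44), Fst (2.78 ± 0.94) and Smad7 (1.43 ± 0.24) were higher, though Fst was not called without neoCF replicate 2 or either day-0 array. Acvr2b fell by 2.46 ± 0.14 (adjusted p = 3.5e-11, limma), from 1.40 and 1.44 to -0.99 and -1.09, and Ltbp4 by 1.80 ± 0.18. Bmp5 was at least 10.3-fold lower, since it was not well above background on either day-0 array. Targets of TGF-beta moved too: 13 of 30 were higher and 5 lower, and Timp1, a metalloproteinase inhibitor, was among those higher (5.02 ± 0.15). Markers of other cells fell in the same comparison: 10 of 10 cardiomyocyte, 8 of 11 endothelial and 5 of 5 epicardial markers, and 6 of 12 macrophage markers, of which 2 rose. The endothelial median was 0.59 and 0.61 on the day-0 arrays, with all 11 markers well above background, against 3.86 and 4.02 in neoCF. Their part in the members' changes was not tested.

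Culture with the control virus was followed from CF D0 to LacZ D14, on the same slide. It changed 8 of 42 members, 4 in each direction, against 27.6% of all genes (15.7% higher and 11.9% lower). Inhbb rose by 3.27 ± 0.17 (adjusted p = 1.1e-11, limma), from -0.57 and -0.56 to 2.84 and 2.58, and Inhba fell by 2.51 ± 0.11 (adjusted p = 9.4e-13, limma), from 6.11 and 6.01 to 3.61 and 3.50. The activin subunits thus moved in opposite directions. Bmpr1b fell by 5.75 ± 0.73, to -4.53 and to -5.64 on an array not well above background for it. Ltbp3 rose by 2.38 ± 0.15, Ltbp1 fell by 1.53 ± 0.40 and Bmp2 by 1.34 ± 0.36. Tgfbr2 was higher by 1.85 ± 0.62, a call lost without any 1 of the 4 arrays. Its spread was widest in iPSC2-CM D29 (standard deviation 2.58), outside this comparison. Of macrophage markers 9 of 12 rose, to a median of 4.39 and 4.72 from 0.10 and 0.11, while 8 of 11 endothelial markers fell and 1 rose. The part of these cells was not tested.

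The products of both routes were compared with fresh fibroblasts and with each other. The comparisons with neoCF share those 2 arrays, and neoCF lay on other slides. Scan day and group cannot be told apart in iCM against neoCF, whereas the early iPSC-derived cells and neoCF shared a scan day. Against neoCF, the iCM had 15 of 42 members called, 10 higher and 5 lower, or 8 and 7 under quantile normalization (37% of all genes, 16.9% higher and 20.1% lower), and the early iPSC-derived cells, as the mean of both lines, 21, with 9 higher and 12 lower (37.2% of all genes, 18.6% higher and 18.5% lower). Markers differed from neoCF as well. In iCM, 9 of 11 endothelial and 6 of 6 proliferation markers were lower, with endothelial medians of -2.07 and -1.59 against 3.86 and 4.02, and 6 of 10 cardiomyocyte markers were higher and 3 lower. In the iPSC-derived cells 10 of 11 endothelial, 11 of 12 macrophage and 10 of 10 fibroblast markers were lower. Their part in the members' differences was not tested. Smad9, a receptor-activated Smad of the BMP branch, was higher in both, by 2.44 ± 0.21 in iCM (adjusted p = 8.6e-09, limma) and 2.49 ± 0.18 in iPSC-CM (adjusted p = 6.0e-10, limma). Its arrays read -2.77 and -2.87 in neoCF, -0.31 and -0.44 in iCM, 0.08 and 0.22 in iPSC1-CM D13, and -0.41 and -1.23 in iPSC2-CM D9. Bmpr1a was higher in both as well, by 1.34 ± 0.16 and 1.07 ± 0.14. The second of these was short of 2-fold under the other scalings, at 0.85 to 0.89, and without iPSC1-CM D13 replicate 2 (0.98) or iPSC2-CM D9 replicate 1 (0.88). Both genes were above neoCF in control cultures too. Smad9 group means in LacZ cells ran from -2.53 on day 3 to -0.79 on day 7, against -2.82 in neoCF and -2.61 in neoCM. Those of Bmpr1a ran from 2.60 to 3.45 on the same days, against 2.35 in neoCF and 3.05 in neoCM.

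Between the routes, 21 of 42 members were called, 14 higher in iCM and 7 lower, against 46.9% of all genes (20.6% higher and 26.2% lower). Scan day and route cannot be told apart here. The largest rise was Grem1, at 1.71 and 1.19 in iCM against -5.88 and -5.80 in iPSC1-CM D13 and -4.15 and -4.53 in iPSC2-CM D9, a change of 6.54 ± 0.56 (adjusted p = 3.7e-09, limma). Fst was higher by 5.48 ± 0.81, at 3.88 and 3.57 against levels of -0.74 to -2.55. Ltbp2, a matrix protein of the latent TGF-beta binding family, was higher by 5.63 ± 0.38 (adjusted p = 1.2e-10, limma), at 4.37 and 4.48 against 0.16, 0.10, -2.59 and -2.49. Inhbb was higher by 4.98 ± 0.14 (adjusted p = 9.5e-16, limma), at 2.87 and 3.01 against -0.04, -0.41, -4.03 and -3.67. The SE comes from arrays within a group and does not cover the spread between the lines.

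Tgfbr2, which TGF-beta needs to signal, was at 5.38 and 5.41 in iCM, its highest group. It read 1.91 and 1.88 in the first line and -1.53 and -2.46 in the second, so the mean change of 5.45 ± 0.54 (adjusted p = 2.9e-08, limma) joins unequal lines. A second probe for Tgfbr2 gave 1.37. Bmp6 (3.44 ± 0.41), Tgfbr3 (3.29 ± 0.32), Tgfb3 (2.82 ± 0.30), Acvrl1 (1.48 ± 0.11) and Id3 were higher in iCM. Inhba was called higher by 2.46, yet the lines lay on both sides of iCM: 2.77 and 2.73 in the first, -3.39 and -3.72 in the second, and 2.02 and 2.09 in iCM. Against the first line alone it was 0.69 lower in iCM.

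The iPSC-derived cells held BMP ligands that the iCM had at low levels. Bmp7 was lower in iCM, with a change of -8.92 ± 0.87 (adjusted p = 2.4e-08, limma), at -5.24 and -5.72 against 1.95 and 1.71 in iPSC1-CM D13 and 5.05 and 5.06 in iPSC2-CM D9. Bmp5 was at least 32.7-fold lower, with neither iCM array well above background. Bmp2 (-2.64 ± 0.31) and Bmp10 (-2.21 ± 0.19) were lower, though Bmp10 was -0.98 and not called after normexp and quantile normalization. Also lower was Acvr2b (-2.45 ± 0.12, adjusted p = 1.8e-12, limma), a type II activin receptor, at 1.11 and 0.83 against 2.57 to 4.26. Tgfb2 was lower by 1.17 ± 0.23 and Id1 by 1.10 ± 0.16. Against the second line alone these were -0.61 (adjusted p = 0.052) and -0.69, short of a call, as Id1 was without iCM replicate 2 (-0.95).

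Markers moved between the routes too. In iCM, 11 of 12 macrophage, 8 of 10 fibroblast and 4 of 5 epicardial markers were higher, and 6 of 6 proliferation and 5 of 10 cardiomyocyte markers lower. The macrophage list's median was 2.86 and 2.87 in iCM and between -5.66 and -5.12 in the early iPSC-derived cells. The part of these cells in the members' differences was not tested. Of 64 further pathway genes, 25 were higher and 18 lower in iCM. The Nodal co-receptors Cfc1 (-9.28 ± 0.72) and Tdgf1 (-4.17 ± 0.32) were among the largest falls.

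**Figure D4:**
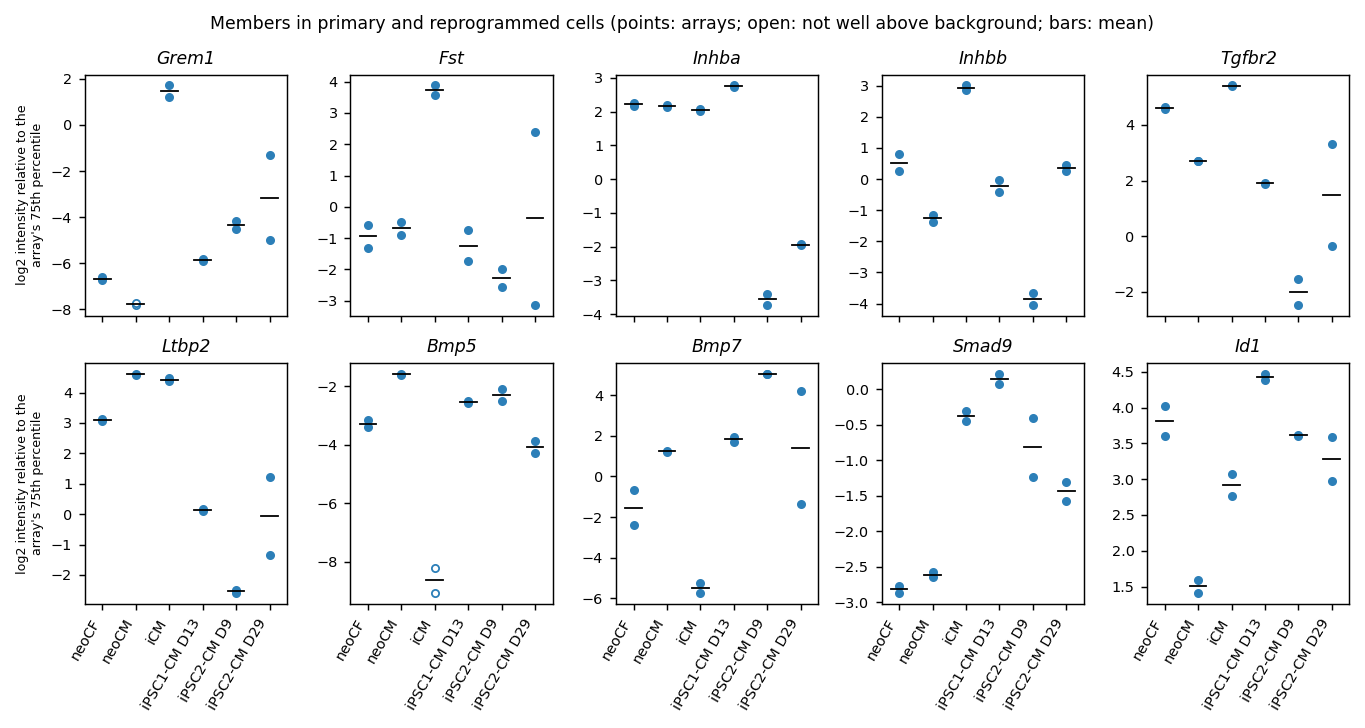
Levels of 10 members (log2 intensity relative to the array's 75th percentile) in the fresh, directly reprogrammed and iPSC-derived groups; points are single arrays, open where not well above background, and bars are means of 2. Grem1 and Fst stand highest in iCM, Bmp7 highest in the day-9 cells of the second line, and the iPSC2-CM D29 arrays of Fst, Tgfbr2 and Bmp7 lie far apart.

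The day-29 cells entered no comparison because their arrays disagreed. Fst read 2.41 and -3.13 there, Tgfbr2 3.31 and -0.34, Bmp7 -1.37 and 4.20, and Grem1 -1.32 and -5.00. On those arrays the endothelial marker median was -1.72 and -4.96.

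Set against native cardiomyocytes, iCM had 19 of 42 members called, 14 higher and 5 lower. Of all genes 38.9% were called, 18% higher and 20.9% lower. Grem1 was at least 231-fold higher, since it was not well above background in neoCM. Inhbb (4.19 ± 0.17), Fst (4.41 ± 0.94), Acvrl1 (2.25 ± 0.13), Smad9 (2.24 ± 0.21), Bmp4 (2.07 ± 0.17) and Smad6 (1.92 ± 0.16) were higher, with adjusted p-values from 1.5e-13 to 4.7e-04 (limma). Bmp5 was at least 58.3-fold lower, and Bmp7 lower by 6.71 ± 1.00 (adjusted p = 1.1e-05, limma), at -5.24 and -5.72 against 1.19 and 1.27. Bmp10 (-2.65 ± 0.22) and Bmp2 (-2.17 ± 0.36) were lower. Id1 was higher in iCM by 1.41 ± 0.18 and Id3 by 1.14 ± 0.19, while Id4 was lower by 1.31 ± 0.41, a call lost without neoCM replicate 2 or iCM replicate 1. In the same comparison 11 of 12 macrophage markers were higher and 1 lower, with medians of 2.86 and 2.87 against -2.08 and -1.97 in neoCM. Of endothelial markers 8 of 11 were lower and 1 higher, with medians of -2.07 and -1.59 against 0.54 and 0.40, and 5 of 6 proliferation and 8 of 10 cardiomyocyte markers were lower. The fibroblast markers Thy1 (3.51), Tcf21 (2.88), Ddr2 (2.17) and Pdgfra (2.07) were called higher and Col1a1 (-1.01) lower. The epicardial markers Upk1b (4.72), Wt1 (2.79), Msln (2.59) and Upk3b (2.25) were called higher and Krt19 (-1.88) lower. The part of these cells was not tested.

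Of the 13 members with over 1 kept probe, the probes differed in a call in 19 of 182 pairs of probe and comparison, and in sign in 2 where 1 of them was called. Smad5, uncalled by its brighter probe, fell on the other by 2.06 in iCM and by 1.78 in neoCM against neoCF, by 1.84 in LacZ D14 against CF D0 and by 1.23 in iCM against iPSC-CM. Acvr2a, a type II activin receptor likewise uncalled by its brighter probe, was called on the other in LacZ D14 against CF D0 (-1.48), in MGT against LacZ on day 5 (1.19), in neoCM against neoCF (1.23) and in iCM against iPSC-CM (1.03). Smad1 in iCM against neoCM was 1.19 on one probe and -0.48 on the other. Both probes of Tgfbr1 rose under MGT on day 5, and on day 3 the dimmer one was called and the brighter was not (1.01 and 0.94).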

How the data were processed

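RNA was measured on single-colour Agilent arrays, 2 for each of 17 groups. The deposited scanner files give a fluorescence intensity for each spot, already corrected for background and spatial trend in Feature Extraction version 10.7.3.1, per the file headers. A second deposited table holds the authors' log2 values of these arrays. The submitters' processing notes name limma for it, with no version, and its scaling method is not given in the sources used here. Its columns had medians of 7.49 to 7.52 and correlated with log2 of the scanner intensities at r = 0.982 or more.

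Outlier spots (119 to 321 an array) were removed. Intensities were log-transformed to base 2 and averaged by probe, and each array's 75th percentile was subtracted. Probes stayed in the test where 1 group or more had signal well above background on both of its arrays, and a gene was read from its brightest such probe. RefSeq annotation (GRCm38.p6) named 26050 probes from an accession, 3205 from a current symbol and 930 from a former one, leaving 25496 unnamed. Members were matched on the gene name in the scanner files. A single limma fit (limma 3.58.1, R 4.3.3, data.table version 1.17.8) covered all 34 arrays with a mean per group, 17 residual and 1.99 prior degrees of freedom, and no sample dropped. This shares 1 spread over groups, iPSC2-CM D29 included. The code was tested on simulated data. For a member too dim on its lower side, an at-least fold was computed from the larger of its own signal there and the lowest detected signal of the array. The number of arrays limits the precision. Plots were made with matplotlib 3.10.9 (Python 3.11.15, pandas 2.3.3, numpy 2.4.6).

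Per the headers, there were 6 slides and 3 scan days. Replicate numbers did not pair the samples: same-numbered arrays of different groups deviated together at r = -0.13 to 0.17 over 136 pairs of groups, with 8 above 0.1. Full values were given, by rule, for the largest called rise and fall of each role in a comparison and for members called on 3 or more of 5 days, and other members by counts, ranges or levels. Members, gene lists and motifs were chosen with earlier results of these data known. Alternatives changed the scaling, background correction, filter, probe rule, fold minimum, weights, block, samples and reference group.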

Additional observations from a re-analysis of the deposited data

Results flagged for a closer look

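The effect of MGT against LacZ differed between day 10 and day 3 by an interaction term in 3 members (limma, called as in the report). For Ltbp1 the later change exceeded the earlier by 2.33 on the log2 scale (3.69 against 1.37). For Id3 it was -1.03 (-1.41 against -0.39), and for Id1 -1.02, with -2.02 on day 10. Both viruses' arrays of a day shared a slide, and days 3 and 10 lay on different slides of 1 scan day, so slide and day cannot be told apart. Each of these calls was lost without most single arrays, as the report gives.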

How the results depend on the processing

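Every one of 14 counts of called members was computed again under each alternative, 189 values besides those that leave out 1 array, of which 16 moved by over 1.5 times. With no fold minimum the counts rose to 23 (neoCM against neoCF), 26 (CF D0 against neoCF), 25 (iCM against neoCF), 34 (iPSC-CM against neoCF), 17 (LacZ D14 against CF D0), 10 and 20 (MGT against LacZ on days 3 and 5), 26 (days 3 to 10) and 8 (day 10 against day 3). The last count, 3 in the report, was 1 under normexp with quantile normalization, under the authors' log2 values and with no filter on dim probes. It was 5 with array weights, without both iPSC2-CM D29 arrays, and without these and the dimmest LacZ D14 array, a setting chosen after seeing the data. With CF D0 in place of neoCF the neoCM count was 22. Leaving out 1 array gave 2 to 3 members on day 3, where the full set gave 5, and 0 to 4 for day 10 against day 3. The other ranges were 10 to 12 (neoCM against neoCF), 11 to 13 (CF D0 against neoCF), 12 to 15 (iCM against neoCF), 19 to 24 (iPSC-CM against neoCF), 20 to 23 (iCM against iPSC-CM), 17 to 21 (iCM against neoCM), 6 to 10 (LacZ D14 against CF D0), 8 to 10 (day 5), 13 (day 7), 11 to 13 (day 10), 12 to 14 (day 14) and 12 to 14 (days 3 to 10). The shares of all genes with no fold minimum, or without 1 array, are not given here, so these member counts have no background. Directions turned with CF D0 in place of neoCF for Ltbp2 (-1.54 in neoCM, -1.72 in iCM), Tgfbr2 in neoCM (0.055), Ltbp4 in iCM (0.37), and Grem1 (-4.90) and Ltbp3 (0.27) in iPSC-CM, and with the first line alone for Inhba in iPSC-CM against neoCF (0.53) and in iCM against iPSC-CM (-0.69). The cause was not tested. Of values for called members, 97 of 2688 fell short of a call in these alternatives, and 117 of 1052 without 1 array. The split of called members moved in iCM against neoCF, from 10 higher and 5 lower to 8 and 7 under quantile normalization, in MGT against LacZ on day 14, from 5 and 10 to 6 and 7, and over days 3 to 10 to 6 and 5 with the authors' values. In iPSC-CM against neoCF it went from 9 and 12 to 7 and 15 under quantile normalization. On day 3 it was 3 and 2, and 3 and 1 under each other scaling. With the 75th percentile the median change of all genes was 0.21 in iPSC-CM against neoCF, -0.22 in iCM against iPSC-CM, 0.10 in LacZ D14 against CF D0, and -0.14 and -0.13 in MGT against LacZ on days 10 and 14. Bmp10 in iCM against iPSC-CM was -0.98 under normexp, against -2.21. Over all genes, MGT against LacZ had 1202 calls over days 3 to 10 under normexp, against 1922, and 4754 on day 14 with no filter on dim probes, against 2560. Without both iPSC2-CM D29 arrays, day 3 had 1505 calls, against 979, and day 10 against day 3 had 1004, against 382. With the replicate block all 14 counts of members were the same (14 for days 3 to 10), and the numbers pair no samples. Dim signal limits Bmp5, Bmp7, Bmp10, Bmpr1b and Grem1, which were not well above background on every array.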
